A study of Mus musculus with 6 samples.

Results

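The 6 mouse actin genes and the 4 mouse tropomyosin genes were examined in embryonic heart ventricles, 10 of the 54532 genes in the expression table. They were chosen by name: the muscle actins Actc1, Acta1, Acta2 and Actg2, the cytoplasmic actins Actb and Actg1, and the tropomyosins Tpm1, Tpm2, Tpm3 and Tpm4. RNA-seq of ventricles at E12.5 (embryonic day) gave 3 libraries from LSD1 conditional knockout (LSD1-CKO) embryos and 3 from control (CTL) embryos. LSD1, encoded by Kdm1a, is a histone demethylase that works with the CoREST repressor complex. The labels name neither the Cre driver of the deletion nor the alleles that the controls carry, and do not say whether each library came from a separate embryo. What the p-values capture is then the spread between libraries. It may be technical, though knockout library 3 differed from the other libraries in sex-linked genes.

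Actins polymerise into the thin filaments of muscle and into the filaments of the cell cortex. In the sarcomere, tropomyosin dimers lie along the actin filament and, with troponin, control the access of myosin to it. Cardiac alpha-actin (Actc1) is the main sarcomeric actin of the heart, while skeletal alpha-actin (Acta1) and smooth muscle alpha-actin (Acta2) are also made by cardiomyocytes during development. Many actin and tropomyosin genes are targets of serum response factor (SRF), which binds the CArG box together with coactivators of the myocardin family.

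The alpha-actins encode nearly the same protein, so the level of each isoform rests on base differences between their transcripts. The first 90 coding bases (GRCm38, GENCODE M21) are shown because they carry such differences. Capitals mark bases that differ from Actc1, 14 in Acta1 and 19 in Acta2. Actc1 was read from chr2:114051942-114052031, Acta1 from chr8:123893608-123893697 and Acta2 from chr19:34252464-34252553, all on the minus strand.
Actc1: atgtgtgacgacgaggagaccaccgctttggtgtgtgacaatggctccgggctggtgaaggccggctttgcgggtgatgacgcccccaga
Acta1: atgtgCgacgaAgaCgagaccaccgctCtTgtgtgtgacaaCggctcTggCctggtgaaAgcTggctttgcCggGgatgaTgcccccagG
Acta2: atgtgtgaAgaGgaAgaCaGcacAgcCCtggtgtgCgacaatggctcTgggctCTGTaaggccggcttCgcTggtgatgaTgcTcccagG
Over the last 1125 coding bases, Acta1 was identical to Actc1 at 86.3% of positions, with a longest identical run of 29 bases. Acta2 was identical to Actc1 at 82.5% of positions, and Actb was identical to Actg1 at 88.6%. No 100-base window of a member's exons occurred in another member. Windows shared with other genes made up 29.9% of the exon windows of Actg1, 15.8% of those of Tpm3, 7.37% of those of Tpm4 and 0.644% of those of Actb, so these levels are less certain, and no such window was found for the other members. Parts of the exons of Actg1 (5.53%) and Tpm4 (6.08%) also lie under other annotated genes.

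The 250 bases before the RefSeq start of both sarcomeric alpha-actins (GRCm38.p6) are shown because each holds a CArG box, written in capitals. The box begins 47 bases upstream in Actc1 (chr2:114052876-114053125, minus strand) and 73 bases upstream in Acta1 (chr8:123894776-123895025, minus strand).
Actc1 promoter: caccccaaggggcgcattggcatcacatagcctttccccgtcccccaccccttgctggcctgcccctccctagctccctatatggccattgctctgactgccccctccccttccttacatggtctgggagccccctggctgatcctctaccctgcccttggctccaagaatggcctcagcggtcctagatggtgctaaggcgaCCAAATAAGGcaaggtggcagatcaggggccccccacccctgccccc
Acta1 promoter: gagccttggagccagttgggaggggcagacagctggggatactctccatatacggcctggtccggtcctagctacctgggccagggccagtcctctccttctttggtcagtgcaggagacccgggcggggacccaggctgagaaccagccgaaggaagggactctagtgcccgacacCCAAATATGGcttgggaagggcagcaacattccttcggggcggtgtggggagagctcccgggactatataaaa
The box was searched as an exact match, a pair of C, then 6 bases that are A or T, then a pair of G, which reads alike on both strands. It was found in 482 of 32851 RefSeq promoters cut to the same length (1.47%). Among the members with a RefSeq entry, Actg1 also held 1, beginning 90 bases upstream, and no exact match was found in these windows of Acta2, Tpm1, Tpm2, Tpm3 or Tpm4. SRF also binds boxes that depart from these letters, as those of Acta2 are known to. With at most 1 base off, a match was found in 18.6% of all promoters, and the Acta2 window held 2 such matches. Such matches also lay in the windows of Tpm1 and Tpm3, and none in those of Tpm2 and Tpm4. The Acta1 window also held 1 TATAAA, a motif found in 12.4% of all promoters, and 1 CATTCC, found in 12.6%, with both strands searched. The windows of Acta2 and Tpm1 held 1 CATTCC each as well.

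The deposited values are FPKM (fragments per kilobase of exon, scaled to library size), which allow levels to be compared between genes per length. Reads recovered from them summed to 17898947 to 20076028 per library. Kdm1a, the deleted gene, had 10.7, 11.8 and 11.0 FPKM in knockout ventricles and 29.99, 29.7 and 22.8 FPKM in control ventricles (log2 change −1.22, SE 0.11, limma adjusted p = 0.00274). The 14 cardiomyocyte markers had a summed level of 10840 to 11475 FPKM in knockout and 11177 to 12854 FPKM in control libraries. Mitochondrial transcripts made up 4.64 to 7.10% of the FPKM of knockout libraries and 6.81, 6.09 and 9.03% of that of control libraries. Control library 3, the last of these, stood apart, and the Acta1 call and several of the shares are also given without it. Knockout library 3 had Xist at 12.1 FPKM and 4 Y-linked genes listed at 0, all 4 of which were expressed in the other libraries. Sex-linked expression thus differed within the knockout group but not in this way among the controls. Knockout library 1 expressed the Y-linked genes and also had Xist at 1.11 FPKM. In these bulk samples, fewer cells of a type and less RNA per cell cannot be told apart.

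Actin transcripts in the ventricles were dominated by cardiac alpha-actin, and none of the 10 genes passed the test between knockout and control. In a limma fit over the 14149 genes averaging 0.5 FPKM or more, all 10 members were tested, and 0 were called higher (all genes: 1.91%) and 0 lower (all genes: 0.466%) at an adjusted p under 0.05. At an unadjusted p under 0.05 there were 2, Acta1 and Tpm2. Of the 10 members, 5 had fitted changes above 0 and 5 below. Their median log2 change was 0.00, against −0.01 over all genes tested. In 1 member, Tpm2, all knockout libraries lay above all control libraries (11.0% of all genes tested), and in no member did all lie below (10.4%).

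**Figure D1:**
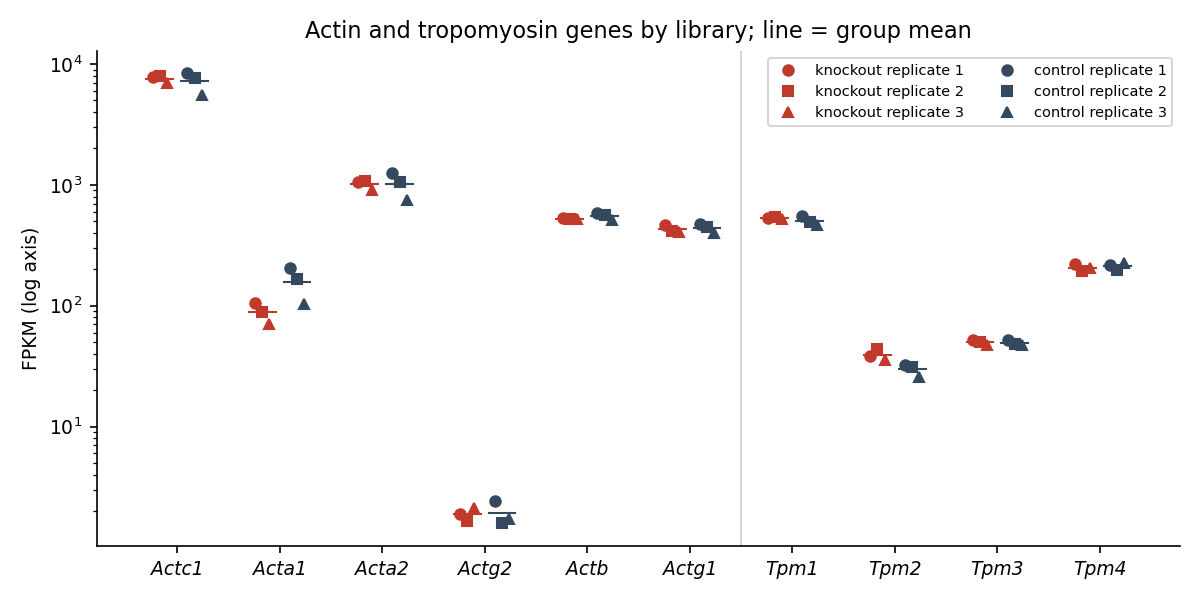
Level of each actin and tropomyosin gene in each library, in FPKM on a log axis, with knockout libraries left of control libraries. Points are libraries, and Actc1 exceeds every other member by several fold.

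Cardiac alpha-actin, Actc1 (ENSMUSG00000068614, chr2:114047282-114053548), had 7736, 7970 and 6940 FPKM in knockout libraries and 8388, 7680 and 5583 FPKM in control libraries. The groups overlapped, and control library 3 was the lowest of all 6. Its mean was 7549 ± 540 FPKM in knockout and 7217 ± 1459 FPKM in control ventricles (SD, n = 3 each), a log2 change of 0.08 (95% interval −0.34 to 0.50, limma adjusted p = 0.866). It ranked 4 among all genes by mean level.

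Skeletal alpha-actin, Acta1 (ENSMUSG00000031972, chr8:123891769-123894751), is the main actin of adult skeletal muscle. It had 105, 89.5 and 70.9 FPKM in knockout libraries, against 207, 165 and 103 FPKM in control libraries. The highest knockout library was just above the lowest control library, control 3, and the other knockout libraries were below every control. The mean was 88.4 ± 17.01 FPKM in knockout and 158 ± 52.1 FPKM in control ventricles (SD, n = 3 each), a ratio of 0.558. The log2 change was −0.80 (SE 0.25, 95% interval −1.37 to −0.22) and did not pass the threshold (unadjusted p = 0.0132, limma adjusted p = 0.172). Without control library 3, which had the lowest Acta1 of the controls, the log2 change was −1.07 and passed (limma adjusted p = 0.0346). That fit dropped 1 of the 3 controls. Acta1 did not pass with any other single library left out (limma adjusted p = 0.209 to 0.411), nor under any rescaling or filter. Over 15 alternatives the limma adjusted p ranged from 0.0282 to 0.411. The skeletal muscle markers summed to 100 to 103 FPKM in knockout and 100 to 111 FPKM in control libraries. Their myogenic regulator Myod1 averaged 0.0396 FPKM in knockout and 0.0835 FPKM in control ventricles. Of the 13 skeletal markers, 5 were high enough to be tested. Among these, the fast light chain Mylpf was called higher and the fast troponin Tnni2 lower (limma adjusted p = 0.00274 and 0.0396). Over all genes tested, 1.91% were called higher and 0.466% lower. The part of the skeletal markers in the Acta1 difference was not tested.

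Smooth muscle alpha-actin, Acta2 (ENSMUSG00000035783, chr19:34241090-34255590), was the second most abundant member by FPKM. By recovered reads, without length, Tpm1 was above Acta2 in every library (61881 against 41782 reads in knockout library 1). Acta2 had 1053, 1070 and 915 FPKM in knockout libraries and 1265, 1048 and 752 FPKM in control libraries. The controls spanned the knockouts on both sides, and the log2 change was 0.02 (95% interval −0.41 to 0.44, limma adjusted p = 0.979). The 10 smooth muscle markers summed to 1371 to 1615 FPKM in knockout and 1114 to 1489 FPKM in control libraries, while Myh11, the smooth muscle myosin, averaged 0.157 FPKM in knockout and 0.0743 FPKM in control ventricles. Of 9 smooth muscle markers tested, 0 were called higher (all genes: 1.91%) and 1 lower (all genes: 0.466%). The marker called lower was the small heat shock protein Hspb6 (9.88 FPKM in knockout and 16.2 FPKM in control ventricles, limma adjusted p = 0.00412). The enteric smooth muscle actin Actg2 (ENSMUSG00000059430, chr6:83512905-83536265) was the least abundant member. It had 1.88, 1.65 and 2.12 FPKM in knockout libraries and 2.44, 1.59 and 1.73 FPKM in control libraries, from 44 to 70 reads per library, and the groups overlapped (log2 change −0.01, limma adjusted p = 0.986).

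The cytoplasmic actins build the cortex and stress fibres of most cells. Actb (ENSMUSG00000029580, chr5:142903115-142906754) had 528, 522 and 524 FPKM in knockout libraries and 589, 566 and 513 FPKM in control libraries. The knockout libraries were close together and inside the range of the controls (log2 change −0.08, 95% interval −0.27 to 0.11, limma adjusted p = 0.680). Actg1 (ENSMUSG00000062825, chr11:120345690-120348542) had 469, 413 and 411 FPKM in knockout libraries and 471, 447 and 403 FPKM in control libraries, also within the control range (log2 change −0.03, limma adjusted p = 0.911).

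Tpm1 (ENSMUSG00000032366, chr9:67022590-67049406), which encodes alpha-tropomyosin, the main striated tropomyosin of the mouse heart, had 528, 543 and 527 FPKM in knockout libraries and 554, 491 and 467 FPKM in control libraries. The controls reached both higher and lower than the knockouts (log2 change 0.08, 95% interval −0.12 to 0.29, limma adjusted p = 0.698). GENCODE gives Tpm1 21 transcripts, and the gene totals used here cannot separate its muscle and cytoplasmic forms.

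Tpm2 (ENSMUSG00000028464, chr4:43514711-43523765) encodes beta-tropomyosin, a form of skeletal and smooth muscle that is also made in the embryonic heart. It had 38.6, 44.2 and 35.5 FPKM in knockout libraries, against 32.5, 31.4 and 25.6 FPKM in control libraries. Every knockout library was above every control. The mean was 39.4 ± 4.44 FPKM in knockout and 29.8 ± 3.73 FPKM in control ventricles (SD, n = 3 each), a ratio of 1.32. The log2 change was 0.39 (SE 0.11, 95% interval 0.13 to 0.66) and did not pass the threshold (unadjusted p = 0.00896, limma adjusted p = 0.142). When the libraries were rescaled to the summed cardiomyocyte markers, a scale chosen after seeing the data, the log2 change was 0.48 and passed (limma adjusted p = 0.0329, in a range up to 0.347 over 15 alternatives). The endothelial markers summed to 224 to 278 FPKM in knockout and 186 to 258 FPKM in control libraries. All 10 were fitted above 0 and 0 were called (all genes: 1.91% higher and 0.466% lower). The fibroblast markers summed to 354 to 441 FPKM in knockout and 372 to 562 FPKM in control libraries, and the immune markers to 151 to 173 FPKM in knockout and 125 to 153 FPKM in control libraries. The neural crest markers summed to 43.5 to 49.0 FPKM in knockout and 26.9 to 44.7 FPKM in control libraries. All 4 tested markers were fitted above 0 (median log2 change 0.35) and 0 were called, beside the same shares of all genes. The epicardial markers summed to 281 to 315 FPKM in knockout and 252 to 324 FPKM in control libraries. Of 8 tested, 6 were fitted above 0 and 1 was called higher (all genes: 1.91%). The erythroid markers summed to 7920 to 16538 FPKM in knockout and 8053 to 18024 FPKM in control libraries. Of 10 tested, 5 were fitted above 0 and 0 were called. The part of other cell types in the Tpm2 difference was not tested.

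The remaining tropomyosins are mainly cytoplasmic, with Tpm3 also used in slow skeletal muscle. Tpm3 (ENSMUSG00000027940, chr3:90072649-90100902) had 52.3, 50.6 and 47.7 FPKM in knockout libraries and 52.1, 48.1 and 47.0 FPKM in control libraries (log2 change 0.03, limma adjusted p = 0.858). Tpm4 (ENSMUSG00000031799, chr8:72134975-72153142) had 220, 194 and 205 FPKM in knockout libraries and 216, 198 and 225 FPKM in control libraries (log2 change −0.05, limma adjusted p = 0.829). In both genes the groups overlapped.

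**Figure D2:**
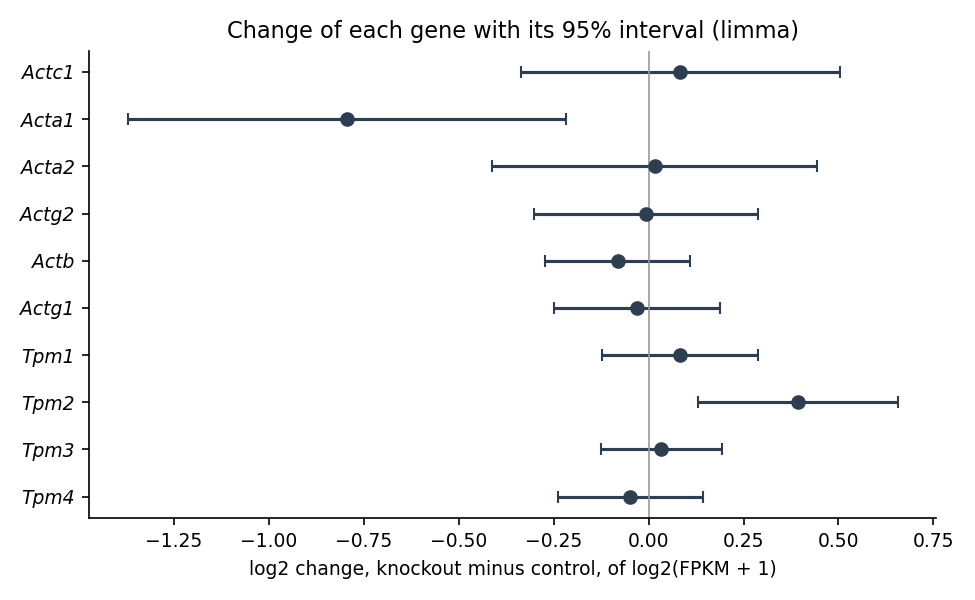
Log2 change of each member, knockout minus control, on the scale of log2(FPKM + 1), with bars for the 95% interval from limma (3 libraries a group). The interval lies below 0 for Acta1 (−1.37 to −0.22) and above 0 for Tpm2 (0.13 to 0.66), neither of which passed after adjustment over all genes.

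Ordered by FPKM in knockout ventricles, the members ran Actc1, Acta2, Tpm1, Actb, Actg1, Tpm4, Acta1, Tpm3, Tpm2 and Actg2, and the ranges of Tpm1 and Actb overlapped. In control ventricles the ranges of Actb and Tpm1 overlapped, as did those of Tpm1 and Actg1 and those of Tpm4 and Acta1. Acta1 and Tpm4 thus had ranges apart in knockout but not in control ventricles, though Tpm4 was above Acta1 within every library. Within libraries, Tpm1 was above Actb in all 3 knockouts, narrowly in knockout library 1 (528.0 against 527.6 FPKM). By FPKM, Actb was above Tpm1 in all 3 controls. By recovered reads, without length, Tpm1 was above Actb in every library. In knockout library 1 this was 61881 against 25542 reads, and in control library 1 66313 against 29129 reads. The order of these genes thus depends on the length used. These orders are a description with no test.

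The share of each isoform in its family was computed as a percent of summed FPKM in each library, so that a shift of the whole family drops out. Actc1 made up 78.2, 79.2 and 78.3% of the 6 actins in knockout libraries, against 76.8, 77.5 and 75.9% in control libraries. The knockout shares were all higher, by 1.83 percentage points on average. Acta1 made up 1.34, 1.11 and 1.01% of the sarcomeric pair Actc1 and Acta1 in knockout libraries, against 2.40, 2.11 and 1.82% in control libraries. Here control library 3 no longer overlapped the knockouts, and every knockout share was below every control share. The means were 1.15 ± 0.167% in knockout and 2.11 ± 0.295% in control ventricles (SD, n = 3 each), a ratio of 0.547.

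Tpm2 made up 4.599, 5.32 and 4.36% of the 4 tropomyosins in knockout libraries, against 3.80, 4.08 and 3.35% in control libraries. The knockout shares were all higher, with means of 4.76 ± 0.504% in knockout and 3.74 ± 0.371% in control ventricles (SD, n = 3 each). Measured by reads without length, this difference of 1.02 percentage points was 0.547 points. Tpm1 made up 93.1 ± 0.618% of Tpm1 plus Tpm2 in knockout and 94.4 ± 0.405% in control ventricles (SD, n = 3 each), with no overlap. Of 16 shares and ratios computed, 5 had groups that did not overlap: the 4 above and Acta1 as a share of all actins. Each had a two-sided exact permutation p = 0.1, the smallest that this test allows with 3 against 3 libraries, and an adjusted p = 0.32, so no share could reach 0.05 by this test. These 5 are not separate results, since the actin shares use the same values, as do the tropomyosin shares.

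**Figure D3:**
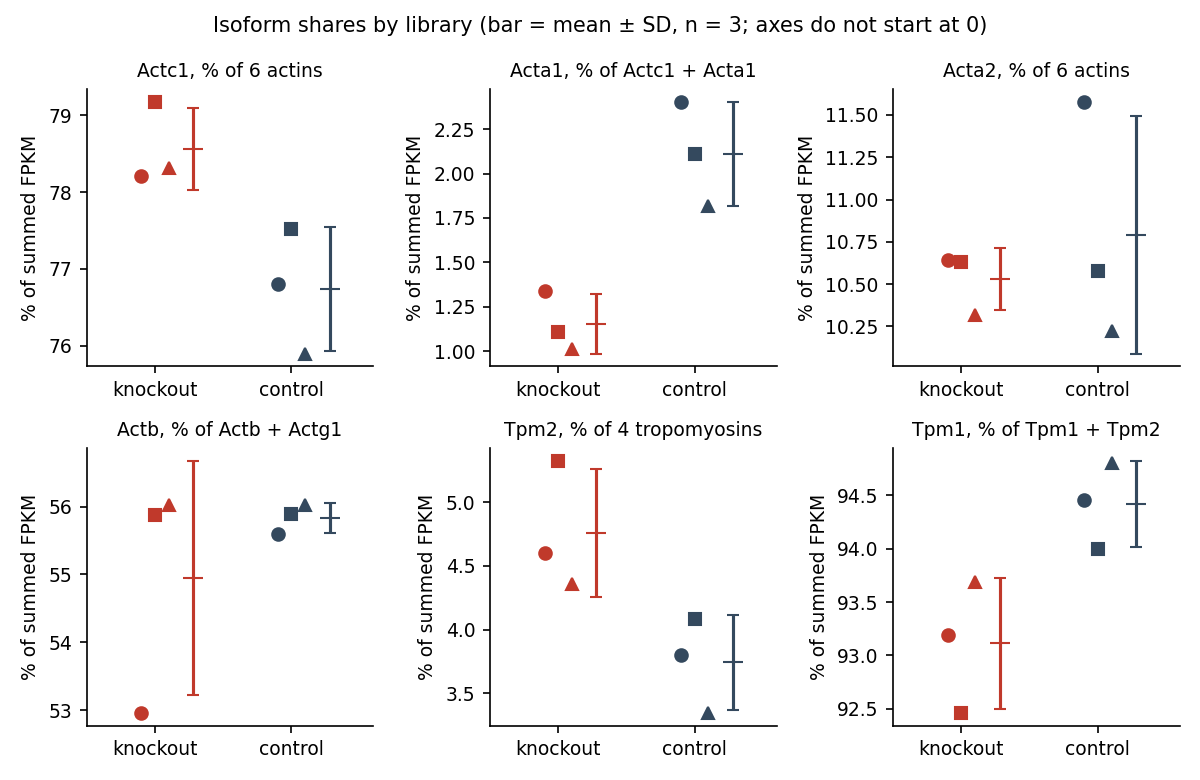
Isoform shares of actin and tropomyosin, in percent of summed FPKM, for each library, with knockout left of control. The knockout libraries lie above the controls for Actc1 and Tpm2 and below them for Acta1.

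The other 11 shares and ratios overlapped between the groups. The muscle actins together made up 90.03 ± 0.635% of actin in knockout and 89.2 ± 1.46% in control ventricles. Acta2 averaged 10.5% of actin in knockout and 10.8% in control ventricles. Tpm1 made up 64.3 ± 1.23% of tropomyosin in knockout and 63.2 ± 1.97% in control ventricles, and Tpm4 24.9 ± 1.498% in knockout and 26.8 ± 2.28% in control ventricles. The ratio of summed actin to summed tropomyosin was 11.6 ± 0.641 in knockout and 11.8 ± 1.85 in control ventricles (SD, n = 3 each throughout). Control library 3 had the lowest of the 6 ratios, 9.62. Without it every knockout library (10.9 to 12.1) lay below both remaining controls (12.8 and 12.9). The difference was then −1.24, against −0.168 with all libraries. Its two-sided exact permutation p = 0.2 is the smallest that 3 against 2 libraries allow, and the library left out was the lowest on this same ratio. Without control library 3 the knockout minus control difference in percentage points was −0.0055 for the muscle actins (0.825 with all libraries), −0.547 for Acta2 (−0.262), −0.064 for Tpm1 (1.04) and −0.641 for Tpm4 (−1.95). As shares of the 6 actins, it was −0.077 for Actb (−0.552 with all libraries) and 0.082 for Actg1 (−0.274). FPKM divides by the full exon length of a gene, 6485 bases for Tpm1, so shares between genes depend on that length. By reads, without length, Tpm1 averaged 79.8% of tropomyosin in knockout and 79.2% in control ventricles. Tpm4 averaged 10.5% in knockout and 11.4% in control ventricles by reads. The ratio of summed actin to summed tropomyosin averaged 3.96 in knockout and 4.06 in control ventricles by reads. By reads per median coding transcript length, this ratio averaged 6.81 in knockout and 6.98 in control ventricles.

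**Figure D4:**
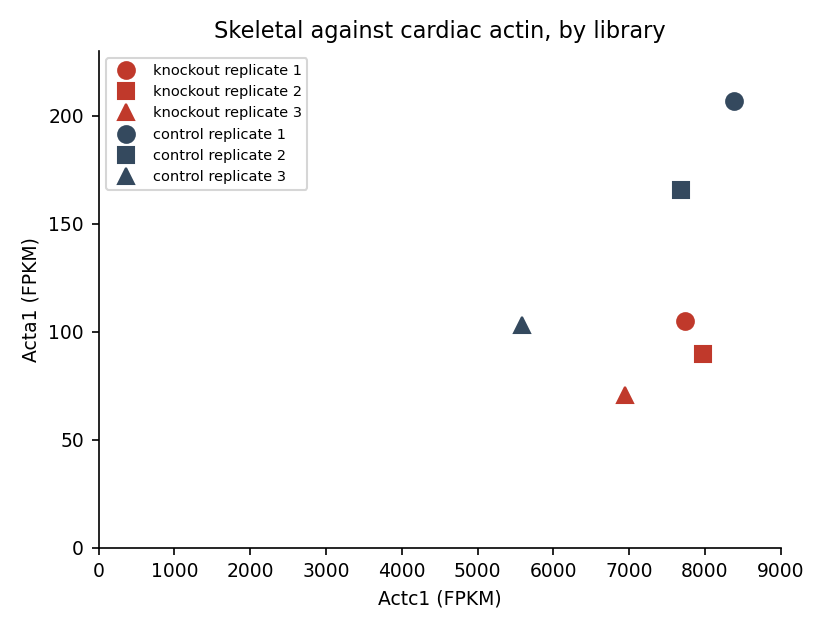
Acta1 against Actc1 in each library, both in FPKM. Acta1 spans 70.9 to 105 FPKM in knockout and 103 to 207 FPKM in control libraries, and each knockout library has less Acta1 for its Actc1 than any control library.

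Over the 6 libraries, the genes most like Actc1 by Pearson r of log2(FPKM + 1), among the 1130 genes averaging 50 FPKM or more, were Got1 (0.995), Gars (0.992) and Nt5dc2 (0.983). Those most like Acta1 were Hnrnpa1 (0.993), Arpc2 (0.991) and Slc25a4 (0.991), and those most like Acta2 were Strap (0.988), Rbbp7 (0.982) and Mdk (0.979). These correlations describe 6 libraries that share depth and composition differences, and carry no test.

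Of 8 lists of genes that make, shape or regulate actin filaments, 124 members were tested, and 1 passed, higher in knockout ventricles (0.806%, against 1.91% of all genes). This was Abra, also called STARS, an actin-binding activator of SRF signalling and 1 of 12 genes tested in the list of SRF and its partners. Abra had 5.33, 6.02 and 6.07 FPKM in knockout libraries, against 4.02, 4.11 and 4.45 FPKM in control libraries. Every knockout library was above every control (log2 change 0.39, SE 0.08, limma adjusted p = 0.0461). The call was lost in 10 of 15 alternatives, among them every fit with 1 of the 6 libraries left out, the fit without the filter on low levels, quantile normalisation and rescaling to cardiomyocyte markers.

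No gene passed in the other lists, and the members with the smallest p are given here. Of 19 monomer-binding and severing genes, the filament-severing gelsolin Gsn averaged 106 ± 4.84 FPKM in knockout and 78.4 ± 11.0 FPKM in control ventricles (limma adjusted p = 0.0874), followed by the profilin Pfn2 (adjusted p = 0.109). Of 22 nucleation genes, the Arp2/3 subunit Arpc1b averaged 36.1 ± 1.03 FPKM in knockout and 29.98 ± 0.312 FPKM in control ventricles (limma adjusted p = 0.0682), followed by the formin Fmnl2 (adjusted p = 0.332). Of 22 capping and crosslinking genes, the calponin Cnn2 averaged 180 ± 16.2 FPKM in knockout and 131 ± 17.5 FPKM in control ventricles (limma adjusted p = 0.0991), followed by the bundling protein Fscn1 (adjusted p = 0.157). All 6 of these genes had higher means in knockout ventricles, but they were picked from their lists on these same data. Of all genes called, 80.4% were higher in knockout ventricles. The 3 lists had medians of 0.01, 0.03 and 0.00 on the log2 scale. Fitted changes above and below 0 numbered 10 and 9 among the monomer-binding and severing genes. They numbered 13 and 9 among the nucleation genes, and 10 and 12 among the capping and crosslinking genes.

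Of 8 thin filament length genes, the nebulin-related Nrap averaged 14.1 ± 0.957 FPKM in knockout and 17.9 ± 3.03 FPKM in control ventricles (limma adjusted p = 0.251), and Nebl had an adjusted p = 0.638. Of 19 actin folding and modification genes, the muscle methyltransferase Smyd1 averaged 124 ± 1.73 FPKM in knockout and 105 ± 6.91 FPKM in control ventricles (limma adjusted p = 0.153), and the phosducin-like Pdcl3 had an adjusted p = 0.267. Smyd1 was the single member of this list with a fitted change above 0. The other 18 were fitted below 0 (median of the list −0.10). This count was 10 (median −0.02) once each library was rescaled to the same FPKM total (TPM). That rescaling also moved the median log2 change over all genes tested, from −0.01 to 0.06. Of 14 splicing regulators, Mbnl2 (limma adjusted p = 0.220) and Ptbp2 (adjusted p = 0.402) had the smallest p. The list of other actin family genes also holds the tropomyosin-related Tpm3-rs7. It includes the chromatin-remodelling subunits Actl6a (limma adjusted p = 0.204) and Actr6 (adjusted p = 0.293). All 8 tested genes of this list were fitted below 0 (median −0.12), against 6 after rescaling to TPM (median −0.05).

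**Figure D5:**
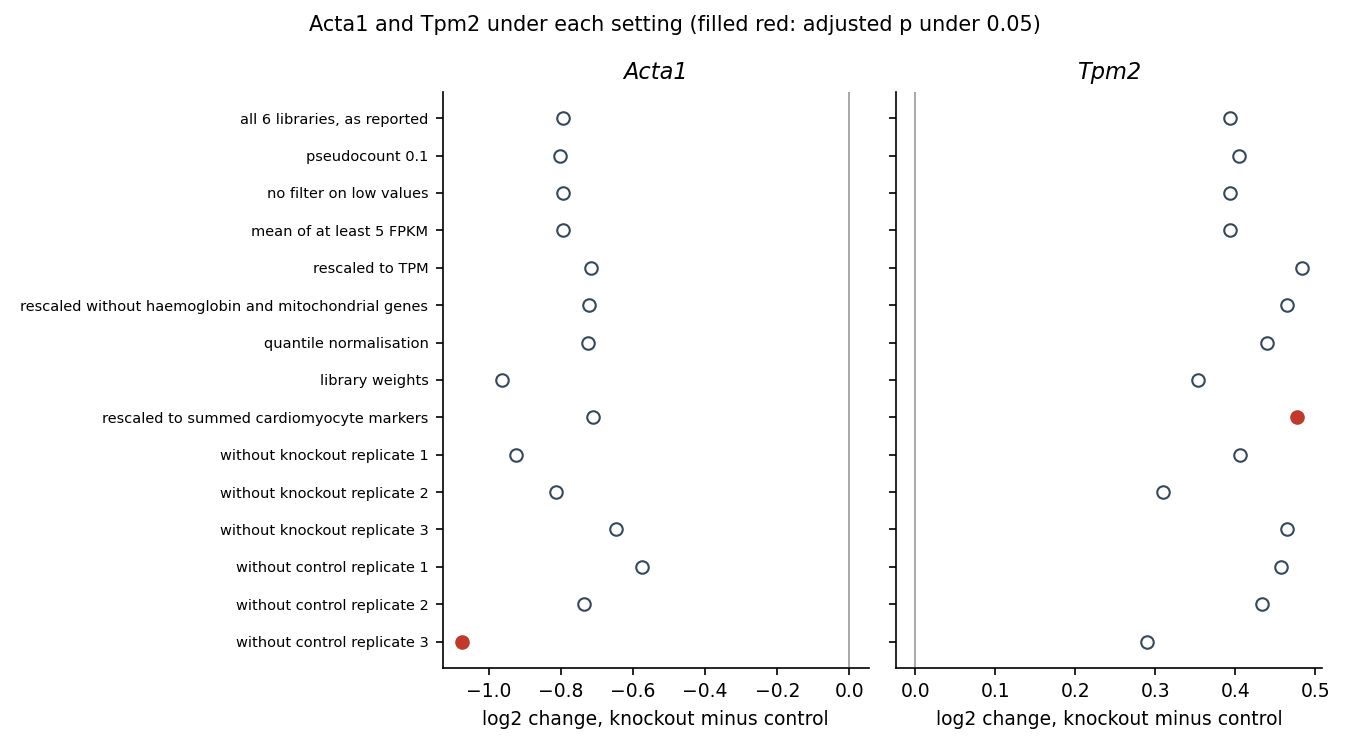
Log2 change of Acta1 and of Tpm2, knockout minus control, with all 6 libraries and under other scalings, filters and left-out libraries. Filled red points passed an adjusted p of 0.05. Among the settings drawn, Acta1 did so without control replicate 3 (−1.07) and Tpm2 after rescaling to cardiomyocyte markers (0.48). The fit with a replicate block, in which Acta1 also passed, is not drawn.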

How the data were processed

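Total RNA from heart ventricles was sequenced in 3 knockout and 3 control libraries, grouped by their labels. The authors deposited 1 table of FPKM per Ensembl gene. Per the submitters' processing notes, HISAT2 2.0.5, featureCounts 1.5.0-p3 and mm10 were used; for strand setting and annotation, none is given in the sources used here. Of 54532 gene IDs, 54495 matched GENCODE M21 and 37 did not.

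FPKM is not a count, so limma 3.58.1 (R 4.3.3) was fitted with a mean-variance trend to log2(FPKM + 1) over the 14149 genes averaging 0.5 FPKM or more, with Benjamini-Hochberg adjustment over all of them. A pseudocount of 1 understates changes of low genes such as Actg2. The script was tested on simulated data. Shares were compared by two-sided exact permutation tests. Multiplied by exon length, the FPKM of a library fell on whole multiples of a single step for 98.1 to 98.5% of genes under 30 reads (tolerance 0.02 reads), which gave the recovered reads.

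Members and lists were chosen with earlier results of these data known. Text names the members, called list genes (or the 2 with the smallest p), marker sums and the 3 genes most like each abundant muscle actin. Promoters came from RefSeq GRCm38.p6, where 8 of the 10 members matched. Alternatives covered pseudocount, filters, scaling, library weights, replicate block and left-out libraries; those by cardiomyocyte markers and by coding length were chosen after seeing the data.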

Additional observations from a re-analysis of the deposited data

How the results depend on the processing

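Against 336 calls over all genes (270 higher, 66 lower), there were 122 (110 and 12) without a filter and 180 (132 higher) at a mean of at least 5 FPKM. Lower calls numbered 40 after rescaling to TPM, 112 with library weights and 32 after rescaling to cardiomyocyte markers, where the median log2 change of all genes was 0.05, against −0.01, and 90.8% of calls were higher, against 80.4%. Leaving out 1 library each gave 134 to 381 calls, 111 to 273 higher and 23 to 108 lower, with 381 without control replicate 3. Members called, 0 with all libraries, numbered 1 with the replicate block (Acta1, log2 change −0.80, limma adjusted p = 0.0282), 1 after rescaling to cardiomyocyte markers (Tpm2) and 0 to 1 with 1 library left out. Over the alternatives Acta1 stayed between −1.07 and −0.58 (adjusted p 0.0282 to 0.411) and Tpm2 between 0.29 and 0.48 (adjusted p 0.0329 to 0.347). Same-numbered libraries deviated together with correlations of −0.002, 0.140 and 0.164, and differently numbered ones with −0.189 to 0.080. These values do not decide whether the numbers pair the samples, and the main fit does not take them as pairs. List genes called, 1 with all libraries, numbered 0 without a filter, 2 after rescaling to TPM or with library weights (Abra, Arpc1b), 2 with quantile normalisation (Cnn2, Arpc1b), 2 after rescaling to cardiomyocyte markers (Cnn2, Gsn), 4 without haemoglobin and mitochondrial genes (Abra, Arpc1b, Cnn2, Pfn2), 1 with the block (Actn3, not Abra) and 0 to 1 with 1 library left out (Gsn without control replicate 2). The difference in the Tpm1 share of Tpm1 plus Tpm2 was −1.31 points by FPKM, −0.629 by reads and −0.633 by median coding length.

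Changes near 0 turned sign without passing: Actc1 (weights −0.0084, left-out libraries −0.091 to 0.20), Acta2 (weights −0.10, left-out −0.19 to 0.19), Actg2 (TPM 0.062, without haemoglobin and mitochondrial genes 0.041, cardiomyocyte markers 0.052, left-out −0.089 to 0.12), Actb (TPM 0.0021, quantile 0.016, cardiomyocyte markers 0.0041), Actg1 (0.054, 0.042, 0.063 and 0.056 under TPM, without those genes, quantile and cardiomyocyte markers, left-out −0.093 to 0.019) and Tpm4 (0.036, 0.025, 0.045 and 0.038 under the same 4 scalings). The cause of these differences was not tested. With 3 libraries a group, a share cannot pass its exact test, and gene totals do not resolve tropomyosin splice forms.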
